A study of Mus musculus with 30 samples.

Results

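The actin and tropomyosin isoform genes build the thin filament of the sarcomere and the actin cytoskeleton of every cell, and 9 of them, among the 55487 genes in the count table, are described here. They were taken by name. The 5 actin genes were Acta1, Actc1, Acta2, Actb and Actg1, and the 4 tropomyosin genes were Tpm1, Tpm2, Tpm3 and Tpm4. Each had 1 row of raw counts, and all 9 passed the filter on low counts that left 15907 genes for testing. Actg2, which encodes the enteric smooth muscle actin, was not among them and had group means between 22.6 and 29.7 CPM (read counts scaled to a common library size).

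The cells were C2C12, a line of mouse myoblasts that stop dividing and fuse into multinucleated myotubes when serum is lowered. It is 1 wild-type cell line, and unfused myoblasts usually remain beside the myotubes in such cultures. Myoblasts were differentiated for 4 days in low-glucose medium with 2% horse serum, and then kept for 4 further days in 1 of 5 media. The control (2% HS) stayed in medium with 2% horse serum. The serum-deprived group (SD) had no serum, and the other groups had no serum and were given 100 nM metformin (MET), 500 nM leucine (LEU) or both at these doses (MET+LEU). Each group had 6 replicates and each replicate gave 1 library, and no label says that they came from separate cultures, so p-values measure the spread between these libraries, which may be technical.

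Actin monomers assemble into a polar filament, and tropomyosin is a coiled coil that lies head to tail along it. In striated muscle, tropomyosin together with troponin covers or uncovers the myosin-binding sites of actin as calcium changes. Myotubes in culture switch on the sarcomeric actins of heart and skeletal muscle together, while the cytoplasmic actins remain from the myoblast stage. Each tropomyosin gene gives several proteins through alternative promoters and splicing, so a gene-level count sums muscle and cytoskeletal forms.

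Libraries held between 12784960 and 19604103 counts, and the 9 genes together took between 1.14% and 1.55% of them. The lowest count of any of the 9 genes in any library was 3781 and the highest was 70368, so counting error was small beside the level of each gene. Over all tested genes, replicates varied with a common biological coefficient of variation of 0.0709. Single genes of the 9 could vary less within a group, such as Tpm4 in MET at 310 ± 6.83 CPM (SD, n = 6). MET+LEU replicate 6 stood apart, since ribosomal RNA of nuclear origin took 5.85% and that of mitochondrial origin 7.64% of its counts, against at most 1.96% and 0.76% in the other libraries. It was kept, and calls that were lost and called values that moved by over 1.5 times without it are also given without it. Since these are bulk RNA libraries, fewer cells of a type and less RNA per cell cannot be told apart.

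The 5 actins are nearly the same protein made from clearly different genes, and the reading frames are shown because this is what lets reads be assigned to a single isoform gene. The coding sequences of Acta1 and Actc1 had 86.2% identical bases but differed in only 4 of 377 residues, and those of Actb and Actg1 had 88.7% identical bases and differed in 4 of 375 residues. Between Acta1 and Actb, 25 of 375 residues differed. Isoform differences cluster at the acidic start of the protein, and the first coding bases of each gene are printed with capitals for the codons between the start codon and the shared alanine, leucine and valine codons. There were 7 such codons, 4 of them acidic, in the 3 alpha-actins, and 5 codons, 3 of them acidic, in the 2 cytoplasmic actins (GENCODE M21, GRCm38).
Acta1: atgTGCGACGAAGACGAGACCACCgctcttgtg
Actc1: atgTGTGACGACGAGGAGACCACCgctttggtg
Acta2: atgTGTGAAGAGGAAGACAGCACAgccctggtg
Actb: atgGATGACGATATCGCTgcgctggtc
Actg1: atgGAAGAAGAAATCGCCgcactcgtc

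The long forms of Tpm1 and Tpm2 start with almost the same coding bases, shown here from the initiation codon with capitals where Tpm2 differs from Tpm1 (3 of 45 bases). The Tpm4 transcript shown gives a shorter protein of 248 residues with another start, printed last, against 284 residues for Tpm2.
Tpm1: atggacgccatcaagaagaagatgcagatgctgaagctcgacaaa
Tpm2: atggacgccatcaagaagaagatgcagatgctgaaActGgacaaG
Tpm4: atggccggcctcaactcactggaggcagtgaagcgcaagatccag

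No stretch of 100 transcript bases was shared exactly between any 2 of the 9 genes. More was shared with annotated genes outside the 9, since 39.4% of the stretches of 100 bases in Actg1 also occurred in other genes, led by the pseudogene Gm12715, and 27.6% of those in Tpm3 occurred in the retrocopy Tpm3-rs7. The share was 9.36% for Tpm4 and 0.9% for Actb, and 0 stretches were shared for Acta1, Actc1, Acta2, Tpm1 and Tpm2. Only exact matches among the transcripts of GENCODE M21 were searched, so copies that are not annotated or that differ in single bases would not be found. How reads with several matches were counted is not given in the sources used here, so the levels of Actg1 and Tpm3 are the least certain. Annotated genes on the opposite strand overlap Acta1, Actc1 and Tpm4, and the strand setting of the counting is not given either. Actg1 is overlapped by 2 annotated genes on its own strand, Gm23419 and Mir6935, which a strand setting would not separate from it.

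All 9 genes lie apart in the genome. Acta1 (ENSMUSG00000031972) spans chr8:123891769-123894751, Actc1 (ENSMUSG00000068614) chr2:114047282-114053548 and Acta2 (ENSMUSG00000035783) chr19:34241090-34255590. Actb (ENSMUSG00000029580) spans chr5:142903115-142906754 and Actg1 (ENSMUSG00000062825) chr11:120345690-120348542. Tpm1 (ENSMUSG00000032366) spans chr9:67022590-67049406, Tpm2 (ENSMUSG00000028464) chr4:43514711-43523765, Tpm3 (ENSMUSG00000027940) chr3:90072649-90100902 and Tpm4 (ENSMUSG00000031799) chr8:72134975-72153142. Tpm3 and Tpm4 are on the plus strand and the other 7 on the minus strand.

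Muscle and growth-responsive actin genes are textbook targets of serum response factor (SRF), which binds the CArG box, 6 bases that are each A or T between CC and GG. RefSeq promoter windows (GRCm38.p6, 250 bases before to 50 after the annotated start) were at hand for 8 of the 9 genes (all but Actb), 9 windows in all, and a CArG box lay in those of Acta1, Actc1 and Actg1 and in no tropomyosin window. Among all 32851 windows of this length, 1.63% held a CArG box on either strand. Only exact matches were counted, with no mismatch allowed. Counted from the annotated start, the box began at -73 in Acta1, at -47 in Actc1 and at -90 in Actg1. The 50 bases around each are printed on the minus strand, where the genes lie, with the box in capitals, because SRF and its targets are among the gene lists described further on.
Acta1, chr8:123894819-123894868: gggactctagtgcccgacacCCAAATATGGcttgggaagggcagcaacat
Actc1, chr2:114052893-114052942: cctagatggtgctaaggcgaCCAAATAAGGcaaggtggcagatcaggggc
Actg1, chr11:120348556-120348605: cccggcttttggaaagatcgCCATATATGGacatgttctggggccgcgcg

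Other muscle promoter motifs, searched on both strands, were common or absent. The MCAT motif CATTCC was present in the windows of Acta1, Acta2 and Tpm1 and in 14.7% of all windows, and the E-box CANNTG was present in every window of the 8 genes and in 72.3% of all. TATAAA was found in Acta1, where it began at -7, in Actc1, where it began at 34, after the annotated start, and in 13.6% of all windows. The MEF2 site was found in none of the 9 windows and in 1.86% of all. All positions, those of the CArG boxes included, depend on the annotated RefSeq start, which for Actc1 lies inside the GENCODE span of the gene. None of the matches in these 9 windows overlapped another, and they describe only the letters in the windows.

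Skeletal alpha-actin was the most abundant of the 9 transcripts in every group. Levels were compared between genes as TMM-scaled CPM per kilobase of exon (the union of all exons in GENCODE M21). In 2% HS, Acta1 stood at 2293 ± 107 CPM per kb (SD, n = 6), followed by Acta2 (1163 ± 34.7), the smooth muscle alpha-actin that fusing myoblasts also make, and Actc1, the cardiac alpha-actin of embryonic skeletal muscle (983 ± 43.0). Actb, the cytoplasmic beta-actin, was at 908 ± 22.4 CPM per kb and its libraries overlapped those of Actc1. The tropomyosins were led by Tpm2, beta-tropomyosin of slow and developing muscle, at 742 ± 15.5 CPM per kb. Actg1, cytoplasmic gamma-actin, was at 270 ± 9.21, Tpm1, alpha-tropomyosin of striated and other muscle, at 164 ± 7.18, Tpm4, a cytoskeletal tropomyosin, at 137 ± 5.29 and Tpm3, whose muscle form belongs to slow fibres, at 62.3 ± 1.98 CPM per kb. Neighbours in this order did not overlap, apart from Actc1 and Actb.

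The order differed between conditions in the middle ranks only. In SD, MET, LEU and MET+LEU, Actb came second with libraries that overlapped those of Acta2. In MET+LEU, Tpm2 at 884 ± 113 CPM per kb stood above Actc1 at 760 ± 54.0, with libraries that overlapped, where in 2% HS it had stood below both Actc1 and Actb without overlap to Actb. Because exon unions include exons that a muscle transcript skips, levels per kilobase understate long genes with many isoforms such as Tpm1 (6485 bases of exon) and Tpm3 (6085).

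**Figure D1:**
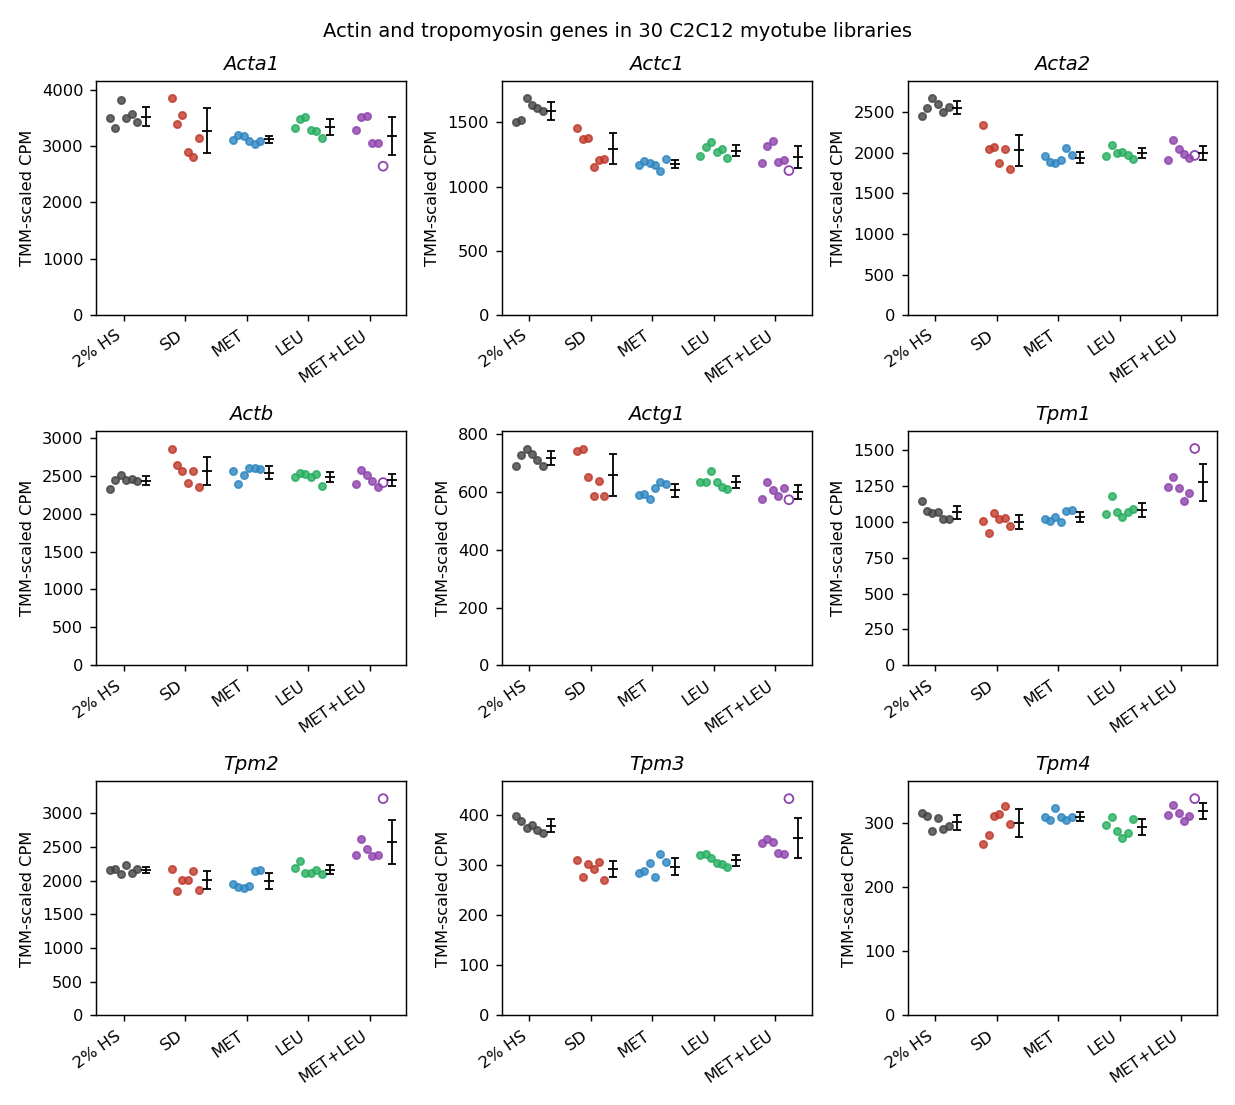
TMM-scaled CPM (y axis) of each actin and tropomyosin gene in 30 libraries, grouped by condition (x axis), with 1 point per library, the mean and SD as bars, and MET+LEU replicate 6 as an open circle. Actc1, Acta2 and Tpm3 were lower in every SD library than in every 2% HS library, and Tpm1, Tpm2 and Tpm3 were higher in every MET+LEU library than in every SD library.

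After serum deprivation the alpha-actins Actc1 and Acta2 and the tropomyosin Tpm3 were lower, each without overlap between the groups, and skeletal Acta1 did not pass the test. This comparison asked what the withdrawal of serum changed in differentiated myotubes. Of the 9 genes, 0 rose and 4 fell in SD vs. 2% HS, where 13.9% of all tested genes were called higher and 13.9% lower with edgeR's quasi-likelihood test at an adjusted p under 0.05. The median log2 fold change was -0.12 over the 5 actins and -0.10 over the 4 tropomyosins, beside 0.00 over all tested genes.

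Acta2 ranged from 2449 to 2665 CPM in 2% HS with a median of 2559, and from 1800 to 2337 in SD with a median of 2044. All 6 SD libraries lay below all 6 libraries in 2% HS. The log2 fold change was -0.33 ± 0.04 (standard error, adjusted p = 5.9e-09 with edgeR), which means that the level fell by 20.6%. Actc1 ranged from 1507 to 1687 CPM in 2% HS (median 1600) and from 1152 to 1457 in SD (median 1294). Again the groups did not overlap, and the log2 fold change was -0.29 ± 0.05 (adjusted p = 1.0e-06).

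Acta1, the adult skeletal isoform, did not pass the test. Its libraries ran from 3323 to 3811 CPM in 2% HS (median 3502) and from 2813 to 3847 in SD (median 3273). The SD libraries spread over a wider range that took in all of the control values. The log2 fold change was -0.10 ± 0.06 (adjusted p = 0.219), with a 95% interval from -0.23 to 0.02 (from edgeR's standard error and degrees of freedom). It passed the threshold with limma-voom and sample quality weights (-0.15, adjusted p = 0.0452) and in the edgeR fit without SD replicate 1 (-0.16, adjusted p = 0.0412).

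Of the cytoplasmic actins, Actg1 was called and Actb was not, and the difference between them was not tested. For Actb the log2 fold change was 0.07 ± 0.04 (adjusted p = 0.118), with 2323 to 2503 CPM in 2% HS and 2353 to 2858 in SD, and the groups overlapped. It was called higher only in the edgeR fit without SD replicate 6 (0.10, adjusted p = 0.0422). Actg1 was called lower at -0.12 ± 0.04 (adjusted p = 0.0369), with overlapping groups of 689 to 750 CPM in 2% HS (median 721) and 586 to 751 in SD (median 647). That call was lost in a fit of only the 2 groups compared (adjusted p = 0.103) and in 8 of the 30 fits that left out 1 library (2% HS replicates 2 to 5 and SD replicates 3 to 6, adjusted p up to 0.12).

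Tpm3 showed the largest fall of the 9 genes. It ranged from 364 to 397 CPM in 2% HS (median 377) and from 270 to 309 in SD (median 297), with no overlap. The log2 fold change was -0.37 ± 0.05 (adjusted p = 5.2e-08), and the level fell by 22.8%. Tpm1 and Tpm2 had log2 fold changes of -0.09 ± 0.04 (adjusted p = 0.125) and -0.11 ± 0.05 (adjusted p = 0.14), with groups that overlapped. Both were called lower in the edgeR fit without MET+LEU replicate 6, a library of neither group that adds to the shared estimate of the spread (adjusted p = 0.0301 and 0.0131). This took the number of the 9 genes called to 6. Tpm2 was also called lower with limma-voom (-0.12, adjusted p = 0.0324) and in a fit of only the 2 groups compared (adjusted p = 0.0371). Tpm4 stood at 301 ± 11.7 CPM in 2% HS and 299.7 ± 22.2 in SD (log2 fold change -0.01 ± 0.04, 95% interval from -0.09 to 0.07).

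Neither MET nor LEU alone moved any of the 9 genes past the threshold. In MET vs. SD, 0.157% of all tested genes were called in either direction, and in LEU vs. SD 0.553%. At an unadjusted p under 0.05 there were 2 of the 9 genes in MET (Actc1 and Actg1) and 1 in LEU (Tpm1), and 0 were called by DESeq2 or by limma-voom. With MET, the log2 fold change was -0.14 ± 0.05 for Actc1 (edgeR, adjusted p = 0.212) and -0.12 ± 0.04 for Actg1 (adjusted p = 0.312). With LEU, it was 0.11 ± 0.04 for Tpm1 (adjusted p = 0.33) with a 95% interval from 0.02 to 0.20, and 0.11 ± 0.05 for Tpm2 (adjusted p = 0.502). The widest interval of any of the 9 genes was that of Acta1, from -0.20 to 0.06 in MET and from -0.10 to 0.15 in LEU.

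With MET+LEU, 3 of the 4 tropomyosin genes were higher than in SD and none of the 3 alpha-actins was called. This comparison asked what the combination changed in serum-deprived myotubes. Tpm1, Tpm2 and Tpm3 rose and Actg1 fell, against 10.6% of all tested genes called higher and 7.8% called lower. The median log2 fold change was 0.31 over the 4 tropomyosins and -0.07 over the 5 actins, beside -0.01 over all tested genes.

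Tpm2 ranged from 1845 to 2165 CPM in SD (median 2009) and from 2358 to 3216 in MET+LEU (median 2427). No MET+LEU library came down to the highest SD library, and the value of 3216 was that of replicate 6, with the other 5 libraries at most 2616. The log2 fold change was 0.36 ± 0.05 (adjusted p = 1.4e-05), and 0.28 without replicate 6 (adjusted p = 1.5e-07). Tpm1 ranged from 924 to 1059 CPM in SD (median 1012) and from 1143 to 1511 in MET+LEU (median 1241), again without overlap. Its log2 fold change was 0.35 ± 0.04 (adjusted p = 3.8e-07), and 0.29 without replicate 6 (adjusted p = 2.8e-08).

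Tpm3 ranged from 270 to 309 CPM in SD and from 323 to 433 in MET+LEU (median 345). Every MET+LEU library was above every SD library, by a log2 fold change of 0.27 ± 0.05 (adjusted p = 9.3e-05), or 0.20 without replicate 6 (adjusted p = 5.5e-05). Tpm4 missed the threshold, at 303.7 to 338 CPM in MET+LEU and 267 to 327 in SD (log2 fold change 0.09 ± 0.04, adjusted p = 0.111), and was called only in the edgeR fit without SD replicate 5 (adjusted p = 0.045). The ribosomal RNA share of replicate 6 moved with the highest level of Tpm1, Tpm2, Tpm3 and Tpm4, and the 3 calls were made without that library too.

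Among the actins, Actg1 was called lower at -0.14 ± 0.04 (adjusted p = 0.0229), with libraries from 586 to 751 CPM in SD and from 573 to 636 in MET+LEU (median 597), so that all MET+LEU libraries lay below the SD median of 647 while the groups overlapped. The call was lost with limma-voom (adjusted p = 0.152), with only the groups compared (adjusted p = 0.137), and without SD replicate 1 or SD replicate 2 (adjusted p = 0.071 and 0.0871). The 3 alpha-actins had log2 fold changes of -0.04 ± 0.06 for Acta1 (adjusted p = 0.704), -0.08 ± 0.05 for Actc1 (adjusted p = 0.249) and -0.02 ± 0.04 for Acta2 (adjusted p = 0.764). The 95% intervals ran from -0.10 to 0.06 for Acta2 and from -0.17 to 0.01 for Actc1. For Actb it was -0.07 ± 0.04 (adjusted p = 0.18), and this gene was called lower only without SD replicate 6 (adjusted p = 0.0451).

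**Figure D2:**
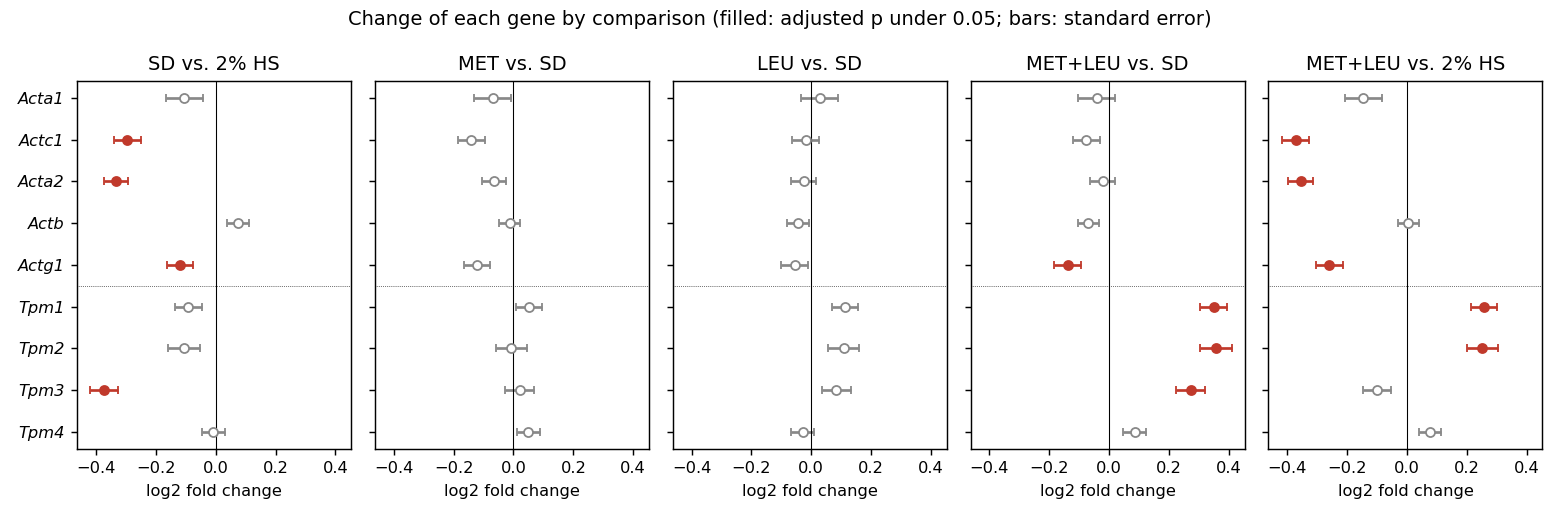
Log2 fold change (x axis) of the 5 actin genes (above the dotted line) and the 4 tropomyosin genes in 5 comparisons, with standard errors as bars and filled points for an adjusted p under 0.05. Actc1 and Acta2 lie left of 0 in both panels that set a group against 2% HS, while Tpm1 and Tpm2 lie right of 0 at 0.35 and 0.36 when the combination is set against SD.

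Compared with serum-fed myotubes, Acta2, Actc1 and Actg1 were lower and Tpm1 and Tpm2 higher in MET+LEU. In MET+LEU vs. 2% HS, 2 of the 9 genes rose and 3 fell, where 22.1% of all tested genes were called higher and 20.3% lower. This comparison shares the MET+LEU libraries with the previous comparison and the 2% HS libraries with the one on serum deprivation. Acta2 was lower by -0.35 ± 0.04 (adjusted p = 8.3e-10), Actc1 by -0.37 ± 0.05 (adjusted p = 4.1e-09) and Actg1 by -0.26 ± 0.04 (adjusted p = 5.4e-06) on the log2 scale, and for each of them no MET+LEU library reached the lowest 2% HS library.

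Tpm2 was above the control by 0.25 ± 0.05 (adjusted p = 2.1e-04), with every MET+LEU library (2358 CPM or more) above every 2% HS library (2228 or less). Tpm1 was higher by 0.26 ± 0.04 (adjusted p = 5.2e-06), with the lowest MET+LEU library (1143) just under the highest in 2% HS (1146). Without replicate 6 the log2 fold changes were 0.17 for Tpm2 (adjusted p = 1.7e-04) and 0.20 for Tpm1 (adjusted p = 1.1e-05). Tpm3 lay between SD and 2% HS, at a log2 fold change of -0.10 ± 0.05 relative to the latter (adjusted p = 0.0898). Without replicate 6 it was called lower than 2% HS at -0.17 (adjusted p = 9.4e-05), and it was also called with limma-voom, upper-quartile scaling, no filter on low counts, or without 2% HS replicate 6 or MET replicate 5 (adjusted p up to 0.0496). It was called higher than SD in every fit, while the call against 2% HS depended on the fit.

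In the same comparison Acta1 was close to the threshold, at -0.15 ± 0.06 (adjusted p = 0.0573). It was called lower in 6 of the 8 other fits and in 17 of the 30 fits that left out 1 library, and not without MET+LEU replicate 6, where it was -0.11 (adjusted p = 0.15). That library had the lowest Acta1 of the group, 2644 CPM, and the other 5 libraries of MET+LEU reached 3528. The Actb level was 2443 ± 82.0 CPM in MET+LEU and 2434 ± 60.1 in 2% HS (log2 fold change 0.01, 95% interval from -0.07 to 0.08), and that of Tpm4 differed by 0.08 ± 0.04 on the log2 scale (adjusted p = 0.0978).

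The same 3 tropomyosins were higher with the combination than with each compound alone. Against MET, Tpm1, Tpm2 and Tpm3 were higher by 0.30 ± 0.04 (adjusted p = 2.7e-05), 0.36 ± 0.05 (adjusted p = 4.2e-05) and 0.25 ± 0.05 (adjusted p = 9.8e-04), where 5.54% of all tested genes were called higher. Against LEU they were higher by 0.24 ± 0.04 (adjusted p = 0.00118), 0.25 ± 0.05 (adjusted p = 0.00441) and 0.19 ± 0.05 (adjusted p = 0.015), where 4.61% were called higher. Without MET+LEU replicate 6, Tpm1 and Tpm2 were higher than with LEU by 0.17 each (adjusted p = 0.0034 and 0.00569), and the call of Tpm3 was lost (0.12, adjusted p = 0.065). Lost too were the calls of Tpm2 and Tpm3 vs. LEU in a fit of only these 2 groups (adjusted p = 0.0562 and 0.104). None of the 5 actins was called in either comparison, with log2 fold changes from -0.06 to 0.06 vs. MET and from -0.08 to 0.00 vs. LEU.

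Whether the combination differed from the sum of both compounds on the log2 scale was tested by the interaction term, and 0 of the 9 genes passed, where 0.0503% of all tested genes did. Tpm2 had an interaction of 0.26 ± 0.08 on the log2 scale (unadjusted p = 0.00166 from edgeR's fit across all genes, adjusted p = 0.249), Tpm1 one of 0.19 ± 0.06 (adjusted p = 0.309) and Tpm3 one of 0.17 ± 0.07 (adjusted p = 0.44). Without MET+LEU replicate 6 the interaction was 0.17 for Tpm2 (adjusted p = 0.296), 0.12 for Tpm1 (adjusted p = 0.53) and 0.09 for Tpm3 (adjusted p = 0.666). At an unadjusted p under 0.05 these 3 of the 9 genes would pass, 0 were called with DESeq2 or limma-voom, and Tpm2 was called when no filter on low counts was applied (0.24, adjusted p = 0.0119).

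The balance between the families differed between SD and MET+LEU. The summed actin level was 5617 ± 188 CPM per kb in 2% HS. It was 5062 ± 482 after serum deprivation, 4817 ± 24.7 with MET, 5038 ± 166 with LEU and 4880 ± 326 with both. The summed tropomyosin level was 1106 ± 23.8, 1028 ± 57.7, 1036 ± 47.4, 1094 ± 35.6 and 1283 ± 145 CPM per kb in the same order. Actin exceeded tropomyosin 5.08 ± 0.255 times in the serum-fed control and 4.94 ± 0.517 times in SD. With MET alone the ratio was 4.66 ± 0.189, with LEU alone 4.61 ± 0.155, and with the combination 3.85 ± 0.506. The highest MET+LEU library, at 4.22, lay below the lowest SD library, at 4.29, while SD and 2% HS overlapped. MET+LEU replicate 6 had the lowest ratio of all, 2.83, and without it the mean was 4.05. The ratios are descriptions, with no test.

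**Figure D3:**
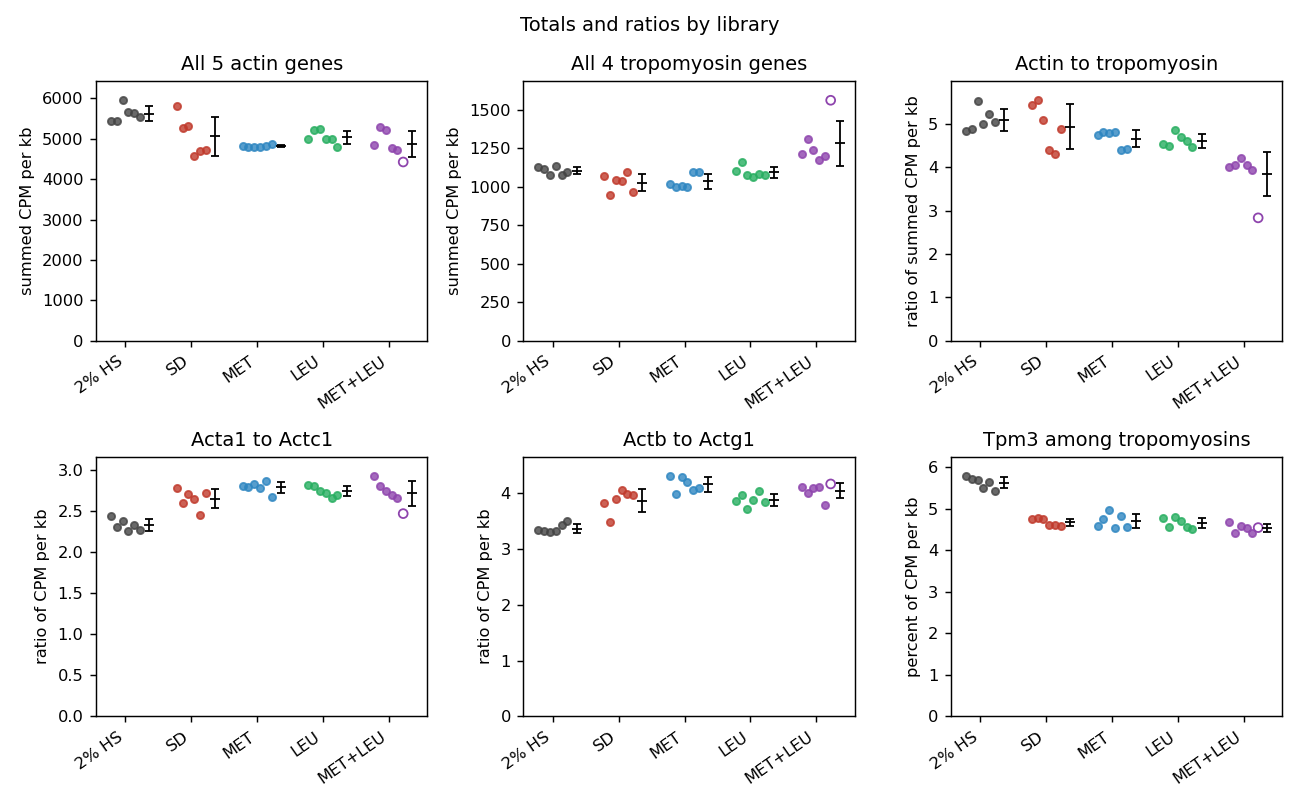
Summed levels, ratios and the Tpm3 share in each of the 30 libraries (y axes, in CPM per kb, as ratios or in percent) by condition (x axis), with means and SD as bars and MET+LEU replicate 6 as an open circle. The actin to tropomyosin ratio of every MET+LEU library, at most 4.22, was under that of every SD library, and the Acta1 to Actc1 ratio of every SD library, at least 2.45, was above that of every 2% HS library.

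Within the actins, the cardiac and smooth muscle isoforms made up less of the mixture in SD than in 2% HS. Acta1 exceeded Actc1 2.33 times in 2% HS (2.26 to 2.45) and 2.65 times in SD (2.45 to 2.78), and the ratio was 2.80 with MET, 2.75 with LEU and 2.72 with both. Among all actin CPM per kb, Actc1 made up 17.5% ± 0.295 in 2% HS and 15.8% ± 0.255 in SD, with no overlap. Acta2 made up 20.7% ± 0.461 and 18.3% ± 0.856, and Actb 16.2% ± 0.354 and 18.9% ± 0.872, where each pair of ranges was also separate. Actb exceeded Actg1 3.37 times in 2% HS (3.31 to 3.50) and 3.87 times in SD (3.48 to 4.06), and these ranges overlapped only between 3.48 and 3.50. The share of Acta1, between 40.8% and 43.1% in the group means, had a range in SD that overlapped those of all other groups.

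Within the tropomyosins, Tpm3 made up 5.63% ± 0.135 of tropomyosin CPM per kb in 2% HS and 4.68% ± 0.0862 in SD without overlap, and 4.53% ± 0.0978 in MET+LEU, where its own level was higher than in SD. For Tpm2 the share was 67.1% ± 0.799 in 2% HS, 67.0% ± 1.28 in SD and 68.8% ± 1.01 in MET+LEU. Tpm2 exceeded Tpm1 between 4.29 and 4.52 times in the group means, and the ranges of all groups overlapped. The share of Tpm4 was 13.2% ± 0.968 in SD and 11.3% ± 0.753 in MET+LEU, with overlapping ranges. Shares computed from raw counts instead of counts per kilobase had other values, such as 33.3% for Acta1 in SD against 42.1%, since exon lengths differ.

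Some of the 9 genes varied together between libraries of the same group. After removing the group means from log2 CPM, Tpm1 and Tpm2 had a Pearson correlation of 0.82 over the 30 libraries, Tpm2 and Tpm3 of 0.88, Acta1 and Actc1 of 0.88 and Acta2 and Actb of 0.91. Without MET+LEU replicate 6 (29 libraries) these were 0.70, 0.79, 0.88 and 0.91. Tpm4 had negative values with all 5 actins, from -0.53 to -0.33. The split did not follow the families throughout, since Acta2 and Tpm2 had 0.40 (0.60 without that library) and Tpm2 and Tpm4 had 0.35 (0.24). All genes of a library share its scaling and depth, so the values are a description without a test.

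The genes most like each of the 9 were ranked by Pearson's r of log2 CPM over all 30 libraries, which includes the group differences, among 9901 genes whose mean log2 CPM was 3 or more. Actc1 was most like Ckb, the brain-type creatine kinase (r = 0.96), Ryr1, the calcium release channel of the sarcoplasmic reticulum (0.95), and Coq8a (0.95). Acta2 was most like Maged1 (0.95), St3gal5 (0.95) and Dmpk, the myotonic dystrophy kinase (0.94). For Acta1 the nearest were Atp5b, the beta subunit of ATP synthase (0.89), Gprc5c (0.87) and Wsb2 (0.86). For the cytoplasmic actins they were Ubr4 (0.90), Zmiz2 and Ulk1 with Actg1, and Nploc4 (0.81), Shisa5 and Surf4 with Actb.

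Tpm2 was most like the imprinted noncoding RNA H19 (0.92), the cardiac troponin T gene Tnnt2 (0.92) and Sync, syncoilin (0.91). Tpm1 was nearest to Hspa8, a constitutive heat shock protein (0.92), Golga4 (0.92) and Brd7 (0.91), and Tpm3 to Filip1l (0.93), Fyco1 (0.93) and Ctnna1, alpha-catenin (0.92). Tpm4 had its closest neighbours at lower values, with Eif3e, a translation initiation factor subunit, at 0.82, Hnrnpdl at 0.81 and Pls3, an actin-bundling plastin, at 0.80.

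Partners of the thin filament were set beside the 9 genes through lists of known function. The counts of every list below stand beside these shares over all tested genes. In MET+LEU vs. SD, 10.6% were called higher and 7.8% lower, and in SD vs. 2% HS, 13.9% higher and 13.9% lower. Of 12 tested genes for thin filament ends and length, 9 rose and 0 fell in MET+LEU vs. SD, with a median log2 fold change of 0.19 beside -0.01 over all tested genes. They included the leiomodins, which nucleate actin, with Lmod1 at 0.49 ± 0.13 (adjusted p = 0.00426), Lmod3 at 0.43 ± 0.06 (adjusted p = 3.1e-06) and Lmod2 at 0.27 ± 0.05 (adjusted p = 4.9e-04). Lmod1 had a low level, 4.87 CPM in SD and 6.87 in MET+LEU, beside 143 and 192 for Lmod3 and 304.5 and 368 for Lmod2. Without replicate 6 the count of genes called higher was 9 as well and the median 0.14. After serum deprivation (SD vs. 2% HS), 0 of these 12 rose and 4 fell. They were Tmod4, a pointed-end cap of skeletal muscle (-1.12 ± 0.15, adjusted p = 2.4e-08), Neb, the giant nebulin that runs along the filament (-0.44 ± 0.06, adjusted p = 5.2e-07), Lmod1 (-0.37 ± 0.13, adjusted p = 0.021) and Lmod3. Tmod4 had a low level, 6.01 CPM in 2% HS and 2.75 in SD, beside 3292 and 2424 for Neb.

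The troponin genes, whose products sit on tropomyosin, had the largest median of any list in MET+LEU vs. SD, at 0.61, or 0.43 without replicate 6. Of 8 tested, 5 rose and 0 fell with or without that library. Tnnc2 rose from 177 ± 17.4 to 348 ± 112 CPM (log2 fold change 0.98 ± 0.13, adjusted p = 1.6e-05), Tnnt3 from 453 ± 33.2 to 797 ± 225 (0.82 ± 0.11, adjusted p = 1.1e-05) and Tnni2 from 246 ± 23.2 to 427 ± 139 (0.79 ± 0.13, adjusted p = 8.0e-05), which are the fast-muscle troponins C, T and I. Tnnt1 of slow and Tnnt2 of embryonic and cardiac muscle rose too. Of the 8, Tnnt2 alone fell in SD vs. 2% HS (-0.26 ± 0.10, adjusted p = 0.0433). Against LEU, where 4.61% of all tested genes were called higher, 3 of the 8 troponin genes were called higher in MET+LEU with replicate 6. Without it 1 was called, and the count over all tested genes, 999 in either direction with it, was lower too. Whether the troponin list lost more calls than all tested genes was not tested.

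Genes that fold and modify actin were the other list in which most members rose with MET+LEU. Of 17 tested, 11 rose and 1 fell vs. SD, and 9 rose and 0 fell without replicate 6, with a median of 0.13 in either case. Prefoldin, which hands nascent actin to the chaperonin CCT, gave the largest values, with Pfdn5 at 0.55 ± 0.05 (adjusted p = 4.9e-10), Pfdn4 at 0.54 ± 0.11 (adjusted p = 5.3e-04) and Pfdn2 at 0.45 ± 0.15 (adjusted p = 0.0307), of which the last was 0.27 and no longer called without replicate 6 (adjusted p = 0.0975). The CCT subunits Tcp1, Cct5, Cct6a and Cct8 rose by 0.12 to 0.16, and the gene that fell was Naa80, the actin N-acetyltransferase (-0.22 ± 0.08, adjusted p = 0.0335, and 0.109 without replicate 6). Against 2% HS, Pfdn6 and Cct5 rose in SD and Setd3, the actin histidine methyltransferase, fell.

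The remaining actin regulators showed no such balance in MET+LEU vs. SD, where 10.6% of all tested genes were called higher and 7.8% lower. Several counts of these lists lie near those shares. Of 18 genes for monomer binding and turnover, 3 rose (Tmsb10, Cap2 and Cfl2, the muscle cofilin) and 0 fell, with a median of -0.01. Of 22 nucleation genes, 4 rose, among them the Arp2/3 subunit genes Arpc3 (0.34 ± 0.07, adjusted p = 3.1e-04), Arpc5l and Actr2, and 3 fell, among them the formin Diaph3 (-0.40 ± 0.11, adjusted p = 0.00654). Among 10 crosslinking genes, 2 rose (Actn3 and Pls3) and Flnc, the muscle filamin, fell by 0.20 on the log2 scale (standard error 0.04, adjusted p = 1.9e-04). After serum deprivation the turnover list split evenly, with 5 genes up, among them Twf1 (0.29 ± 0.04, adjusted p = 3.0e-08) and the severing protein gene Gsn (0.28 ± 0.05, adjusted p = 1.1e-05), and 5 down, led by the cofilin phosphatase gene Ssh2 (-0.52 ± 0.04, adjusted p = 1.9e-16). The nucleation list had 5 up, among them Arpc3 and Arpc1b, and 4 down, led by the formin gene Daam2 (-0.45 ± 0.05, adjusted p = 4.1e-10).

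Among crosslinkers and SRF targets, more genes were called lower than higher after serum deprivation. Of all tested genes, 13.9% were called higher and 13.9% lower. In SD vs. 2% HS, 1 of 10 crosslinking genes rose (Flna) and 5 fell, among them all 4 alpha-actinin genes, with Actn2 of the Z-disc at -0.34 ± 0.05 (adjusted p = 2.4e-06) and Actn3 at -0.28 ± 0.04 (adjusted p = 4.2e-07). Of 18 tested genes for SRF, its MRTF cofactors and contractile targets, 2 rose and 10 fell, with a median of -0.14 beside 0.00 over all tested genes. The log2 fold change was -1.07 ± 0.06 for Ccn2 (adjusted p = 1.0e-17) and, for Cnn1, smooth muscle calponin, -0.95 ± 0.21 (adjusted p = 4.4e-04), while Ccn1, another immediate-early target, rose by 0.47 ± 0.04 (adjusted p = 1.4e-12). Cnn1 had a low level, 2.85 CPM in 2% HS and 1.45 in SD. Srf itself was lower in SD (-0.19 ± 0.05, adjusted p = 0.00189) and lower again in MET+LEU vs. SD (-0.16 ± 0.05, adjusted p = 0.0178). With the combination, 2 of the 18 rose over SD (Cald1 and Ccn2) and 2 fell (Srf and Smtn). Without MET+LEU replicate 6 the call of Smtn was lost (-0.12, adjusted p = 0.0511). Of the 3 actin genes with a CArG box in the printed windows, Actc1 and Actg1 were called lower in SD and Acta1 was not. The call of Actg1 was lost in some of the alternative fits, and Actb had no window to search. Acta2, whose window held no exact match to the CArG pattern, had the largest fall of the 5 actins. The search allowed no mismatch, so a box that differs from the pattern would not be found. Whether SRF or the box has a part in these changes was not tested.

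**Figure D4:**
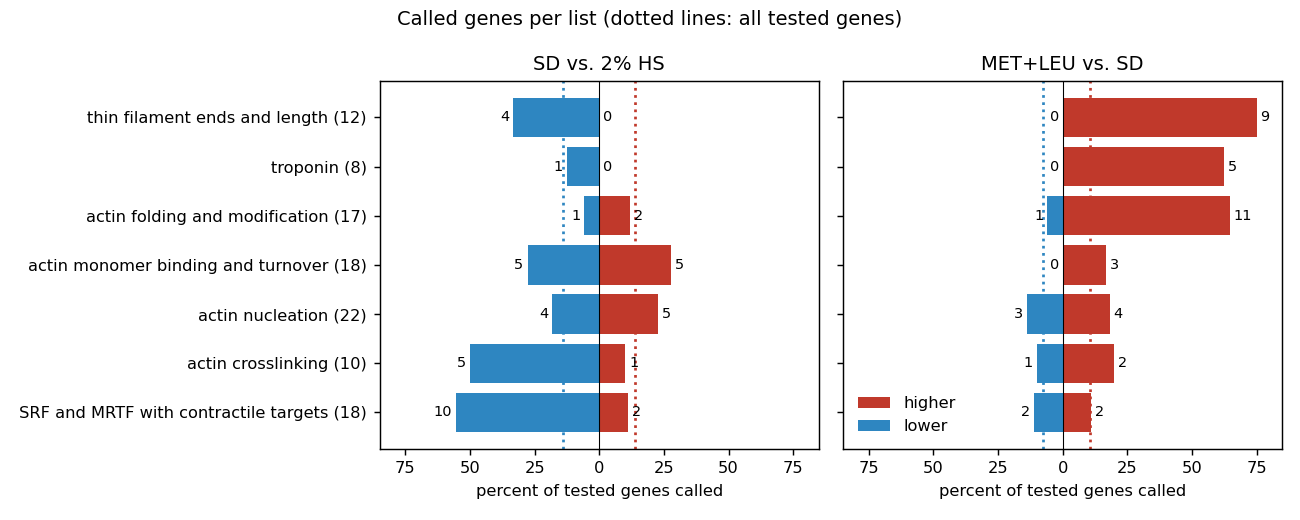
Share of tested genes called in each list (x axis, percent; higher to the right, lower to the left, adjusted p under 0.05) for 7 lists of actin partners (y axis, with the number tested), with the counts beside the bars and dotted lines for all tested genes. The lists for thin filament ends, troponin and folding had 9, 5 and 11 genes called higher with MET+LEU, and the SRF list had 10 called lower after serum deprivation.

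The labelled cell type was checked against markers of muscle and of other cells. All 9 muscle markers were present in every library, with a summed level (CPM without TMM scaling, as for all markers here) between 27610 and 40770, most of it titin (Ttn). After serum deprivation 4 of the 9 fell (Ckm, Myh1, Mymx and Ttn), Des rose, and 4 were not called (Myog, Mymk, Myh3 and Myh8). Over SD, MET+LEU had more of the myosin heavy chains Myh1 (0.46 ± 0.06, adjusted p = 1.7e-06), Myh8 and Myh3 (0.36, or 0.21 without replicate 6) and less of Mymx, the fusion peptide myomixer. Whether these moves and those of the 9 genes are linked was not tested.

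Cycling and fibroblast markers moved with the conditions as well. Of 6 myoblast and cycling markers, 4 fell and 0 rose in MET+LEU vs. SD, with Ccna2 at -0.68 ± 0.08 (adjusted p = 3.7e-08), and the summed level ran from 239 to 305 CPM in MET+LEU and from 331 to 384 in SD. The 4 were cycling genes (Ccna2, Top2a, Cdk1 and Mki67), and the myoblast genes Pax7 and Myf5 were not called. In SD vs. 2% HS, Pax7 alone of the 6 was called, and it fell (-0.37 ± 0.04, adjusted p = 1.2e-10). All 4 tested fibroblast markers rose in SD vs. 2% HS, with Dpt at 3.05 ± 0.07 (adjusted p = 2.9e-36), and their summed level ran from 28.6 to 38.6 CPM in 2% HS and from 89.0 to 102 in SD, while Thy1 was at 0 in 19 of 30 libraries. Dcn alone of the 4 rose further in MET+LEU vs. SD (0.48 ± 0.10, adjusted p = 0.00111). Their part in the actin and tropomyosin results was not tested. The defining smooth muscle genes were near 0, with Myh11 at or under 0.42 CPM and Myocd at or under 0.09 CPM in the group means, while Cnn1, Actg2 and Smtn fell with Acta2 in SD. Endothelial markers (Pecam1, Cdh5 and Kdr) summed to at most 0.78 CPM in any library and adipocyte markers to at most 0.27, and of the blood markers Adgre1 and Hbb-bs were at 0 in all 30 libraries and Ptprc in 27, which leaves Cd68 at 2.10 to 3.03 CPM.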

How the data were processed

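RNA was sequenced from C2C12 myotubes of 5 groups with 6 replicates each. After ribosomal RNA depletion of total RNA the authors made stranded libraries and read them as 150 × 150 bp pairs. The submitters' processing notes name cutadapt 1.16, STAR 2.7.6a, featureCounts 1.6.3, DESeq2 1.30.1 and build GRCm38. The annotation release, the strand setting and the counting of reads with several matches are not given in the sources used here, and these can change counts of genes with near-identical copies. The deposited values are raw counts per gene for each library, whole numbers without normalization.

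From these, genes were filtered with edgeR 4.0.16 filterByExpr (minimum count 10, minimum total count 15), scaled by TMM and fitted in R 4.3.3 as 1 robust quasi-likelihood model of all 30 libraries. Each comparison used its F test, with Benjamini-Hochberg adjustment over 15907 genes and a threshold of 0.05 on the adjusted p. The standard error is the absolute log2 fold change divided by the square root of F. Of 55487 gene identifiers, 55141 matched GENCODE M21. Alternatives were DESeq2 1.42.0, limma-voom (limma 3.58.1), other scalings, filters and samples. The tests were checked on simulated counts. Replicate numbers were not treated as pairs. The genes, the lists and the tests were chosen with earlier results of these data known. From each list, the up to 3 called genes of largest absolute change were named for the comparisons of SD with 2% HS and of MET+LEU with SD, and for each of the 9 genes the 3 most correlated genes. Some further list genes were picked with their values in view (Lmod3 in SD, Tnnt1, Tnnt2 with MET+LEU, Naa80, Tcp1, Cct5, Cct6a, Cct8, Actr2, Flna, the remaining alpha-actinins, Srf in SD, Smtn, Des, Ttn, Mymx, Myog, Mymk, Myf5 and Mki67). Some items are not reported here.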

Additional observations from a re-analysis of the deposited data

Results flagged for a closer look

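In 45 sets of 6 libraries (9 genes in 5 groups), Dixon's test for a single distant library at the 95% level (critical value 0.625) picked out 5, where chance picks about 1 in 20 sets. Both tropomyosin values of MET+LEU replicate 6 were high, with Tpm2 at 3216.1 CPM (other libraries of the group 2358 to 2616) and Tpm3 at 432.6 CPM (323 to 352). This is the library with 5.85% of its counts on nuclear and 7.64% on mitochondrial ribosomal RNA, and its part in the tropomyosin values was not tested beyond leaving it out. In LEU, Tpm1 was high in replicate 2 at 1179.5 CPM (others 1035 to 1089), and Actb was low in replicate 6 at 2369.2 CPM (others 2476 to 2536). In MET, Tpm4 was high in replicate 3 at 323.1 CPM (others 304 to 309.8). Each of these 3 lay within the range that the same gene had over the other groups.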

How the results depend on the processing

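Over 57 gene-and-comparison results and 38 alternatives (30 that left out 1 library and 8 others), 2057 values kept the direction and the side of the threshold, 16 lost a call, 39 gained one and 54 changed sign. In MET+LEU vs. MET, MET+LEU vs. LEU and the interaction, these results held only the 4 tropomyosins. The actins of those comparisons, some with values near 0, are not in these counts. Of 19 called results, 15 kept the call throughout, and none of the values that changed sign was called. Leaving out 1 library gave between 3 and 6 of the 9 genes called in SD vs. 2% HS, 3 to 5 in MET+LEU vs. SD, 5 to 7 in MET+LEU vs. 2% HS, 3 in every fit vs. MET, 2 to 3 vs. LEU, and 0 throughout in MET, LEU and the interaction. The other alternatives gave 4 to 6, 3 to 4, 5 to 7, 3, and 1 to 3 in that order, where 1 vs. LEU came from the fit of only the groups compared, and 0 in MET and LEU. For the interaction, no filter on low counts gave 1 (Tpm2). With a replicate block, 4, 4, 6, 3 and 3 genes were called, and Acta1 in MET+LEU vs. 2% HS gained a call (-0.151, adjusted p = 0.00922), which was the only call it changed. Over all tested genes, deviations of libraries sharing a number had correlations from -0.0913 to 0.142 over 60 pairs. Such correlations cannot show whether the numbers pair the libraries for single genes. Acta1 was higher in every one of replicates 1 to 3 than in replicates 4 to 6 in SD, MET, LEU and MET+LEU, and not in 2% HS. Whether the numbers pair the libraries was not tested further.

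Values near 0 changed sign as follows, and the cause was not tested. With limma-voom, Tpm4 in SD vs. 2% HS was 0.005, Actb and Tpm2 in MET vs. SD 0.016 and 0.002, Actc1 and Acta2 in LEU vs. SD 0.014 and 0.009, and Acta1 and Acta2 in MET+LEU vs. SD 0.024 and 0.005. Actb in MET+LEU vs. 2% HS was -0.020 with upper-quartile scaling, -0.006 with at least 10 counts in every library and -0.000 with only the groups compared. Leaving out 1 library, the ranges were -0.036 to 0.021 for Tpm4 in SD vs. 2% HS. In MET vs. SD they were -0.033 to 0.023 for Actb, -0.027 to 0.018 for Tpm2 and -0.001 to 0.040 for Tpm3. In LEU vs. SD they were -0.009 to 0.081 for Acta1, -0.047 to 0.020 for Actc1 and -0.054 to 0.021 for Acta2. In MET+LEU vs. SD they were -0.088 to 0.003 for Acta1 and -0.060 to 0.015 for Acta2, and -0.018 to 0.009 for Actb vs. 2% HS.

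Counts over all tested genes moved by more than 1.5 times in some comparisons. MET vs. SD had 25 genes called and between 4 and 160 in the alternatives, LEU vs. SD 88 and 43 to 269, and the interaction 8 and 1 to 34. MET+LEU vs. SD had 2931 and at least 1422, MET+LEU vs. MET 1382 and at least 589 (726 without MET+LEU replicate 6), and MET+LEU vs. LEU 999 and at least 311. Values without MET+LEU replicate 6 for lists, totals and ratios were chosen after seeing the data. With at least 3781 counts per gene and library, the spread between replicates and not the depth limits these comparisons.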
